A study of Mus musculus with 7 samples.

Results

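The 4 wild-type samples of a mouse study of the retinal pigment epithelium (RPE) are described here on their own, without the mutant samples of the same study. They were found by genotype in the labels and make up 4 of the 7 arrays. The mice were C57Bl/6J, wild type and 8 weeks old. Per the labels' protocols, the animals were killed with CO2, cornea and lens were removed, and the opened eyes were shaken in a solution that preserves RNA, which freed the RPE for pelleting. The RNA of each pellet was labelled with biotin and read on 1 Affymetrix gene array. The arrays are called 1 to 4 after the replicate numbers in the labels. No label says whether each sample came from separate animals or from pooled eyes, so the spread between the 4 arrays may be partly technical. With a single group there is nothing to test, and no p-value is given.

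The RPE is a single layer of pigmented cells between the photoreceptors and the choroid, the vessel layer that feeds the outer retina. It turns spent all-trans retinoid back into the 11-cis form that photoreceptors need, takes up the shed tips of their outer segments, moves ions, lactate, glucose and water, and secretes factors toward both sides. Its melanin absorbs stray light. A pellet shaken from an opened eye holds RPE and whatever other cells come loose with it, so genes of neighbouring tissues were read beside the RPE genes.

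The deposited values are log2 signals, and 1 unit is a doubling of signal. The probe sets annotated to exactly 1 gene symbol gave 19938 genes, each read by its brightest probe set. Probes differ in how strongly they bind, so the order of signals is an order of brightness and not of transcript number. The mean signal of a gene over the 4 arrays had a median of 7.12, a 10th percentile of 4.16, a 90th percentile of 10.02 and a maximum of 13.44. Odorant and vomeronasal receptor genes, 1190 in all, served as a yardstick for transcripts that an eye is not known to make in quantity. Their 95th percentile lay between 5.42 and 5.72 on the 4 arrays, and 14213 genes (71.3%) were above it on all 4, 15127 (75.9%) on at least 1. A mean of at least 10 was reached by 2033 genes (10.2%), and a mean of at least 12 by 175 (0.878%).

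The 5 genes named as RPE markers were at the top of that scale. Rgr, a retinal G-protein-coupled receptor of RPE and Müller cells, read 13.35, 13.35, 13.37 and 13.35 on arrays 1 to 4. Ttr, the carrier of thyroid hormone and retinol-binding protein, read 13.23, 13.20, 13.22 and 13.22. Rpe65, the isomerase that makes 11-cis retinol, read 12.90, 12.81, 12.92 and 12.84. No array was low in these genes, but they lie at the top of the scale, where the spread of all genes is smallest. Such readings say little on whether RPE content was equal. Lrat, which esterifies retinol to give that isomerase its substrate, read 12.78, 12.81, 12.92 and 12.92. Rlbp1, the carrier protein of 11-cis retinoids, read 12.28, 12.17, 12.40 and 12.17. The mean of the 5 was 12.91 ± 0.04 (SD, n = 4 arrays), and all 5 had a mean above 12, as 0.878% of genes did. By its own markers, the labelled tissue was present on every array.

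**Figure D1:**
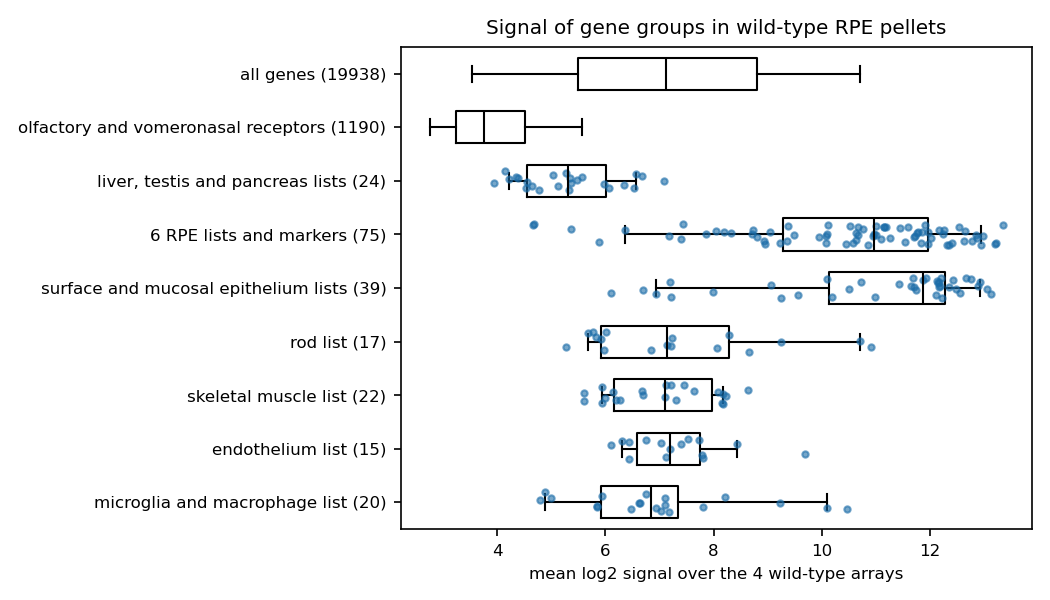
Each point is the mean log2 signal of 1 gene over the 4 wild-type arrays, set out by gene group; boxes span the middle quartiles with a line at the median, and whiskers run from the 5th to the 95th percentile. RPE genes and genes of surface and mucosal epithelium lie mostly above 10, whereas genes of absent tissues lie around 5.30 and rod and muscle genes spread around 7.14 and 7.11.

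Among the 40 brightest genes, RPE genes stood beside genes of another epithelium. The first was Baiap2l1, a membrane-bending regulator of actin, at 13.50, 13.39, 13.41 and 13.47, followed by cytoplasmic actin, Actb, at 13.44, 13.35, 13.47 and 13.42. Besides Rgr, Ttr, Rpe65 and Lrat, the 40 held Kcnj13, the apical inward-rectifier potassium channel of the RPE, at 12.76, 12.76, 12.85 and 12.77. They also held Slc2a1, the glucose transporter through which the RPE supplies the retina, at 12.94, 12.98, 12.98 and 12.99. The secreted members were Cst3 (cystatin C, a protease inhibitor) at a mean of 13.20, Timp3 (a metalloproteinase inhibitor of Bruch's membrane), Ptgds (prostaglandin D synthase and a retinoid carrier), Trf (transferrin) and Apoe (apolipoprotein E). Psap, the precursor of the saposins that help lysosomal enzymes break down lipids, read 12.86, 12.80, 12.90 and 12.83. Altogether 8 of these 40 were on the RPE lists.

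Keratins of stratified epithelium, which RPE cells are not known for, were equally bright. Krt5, the basal-cell keratin of stratified epithelia, read 13.14, 13.16, 13.09 and 13.15, and Krt15, another basal keratin, read 12.86, 12.92, 12.87 and 12.90. Krt4, a keratin of wet-surfaced epithelia such as the conjunctiva, read 12.73, 12.88, 12.70 and 12.75, and Krt6b read 12.82, 12.78, 12.79 and 12.81. No array lacked them, and no array held them alone. The same 40 included Plet1, a surface protein of epithelial progenitors (13.10, 13.10, 13.05 and 12.95), Asprv1, a skin-type aspartic protease (mean 12.81), Cyp2f2, a cytochrome P450 of airway-type epithelium (mean 12.92), and Ceacam1, an adhesion protein of epithelia (mean 12.82). The others included the epithelial membrane protein gene Emp1 (mean 13.24), the calcium-binding S100a11 (13.14), the peroxiredoxin-like Prxl2a, the G-protein subunit Gnb1, detoxifying or antimicrobial genes (Cbr2, Gsto1, Txn1, Adh1, Pglyrp1, Ifitm1, Ly6e), iron-storage Fth1, and genes that nearly every cell uses, such as Eef1a1, Rplp0, Rpl10, Actn4, Capns1 and Atp5d. From the first to the fortieth, the means fell by less than the unit that marks a doubling, a gap of 0.69, and 0 of the 40 ranged by as much as 1 unit over the arrays (0.446% over all genes).

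**Figure D2:**
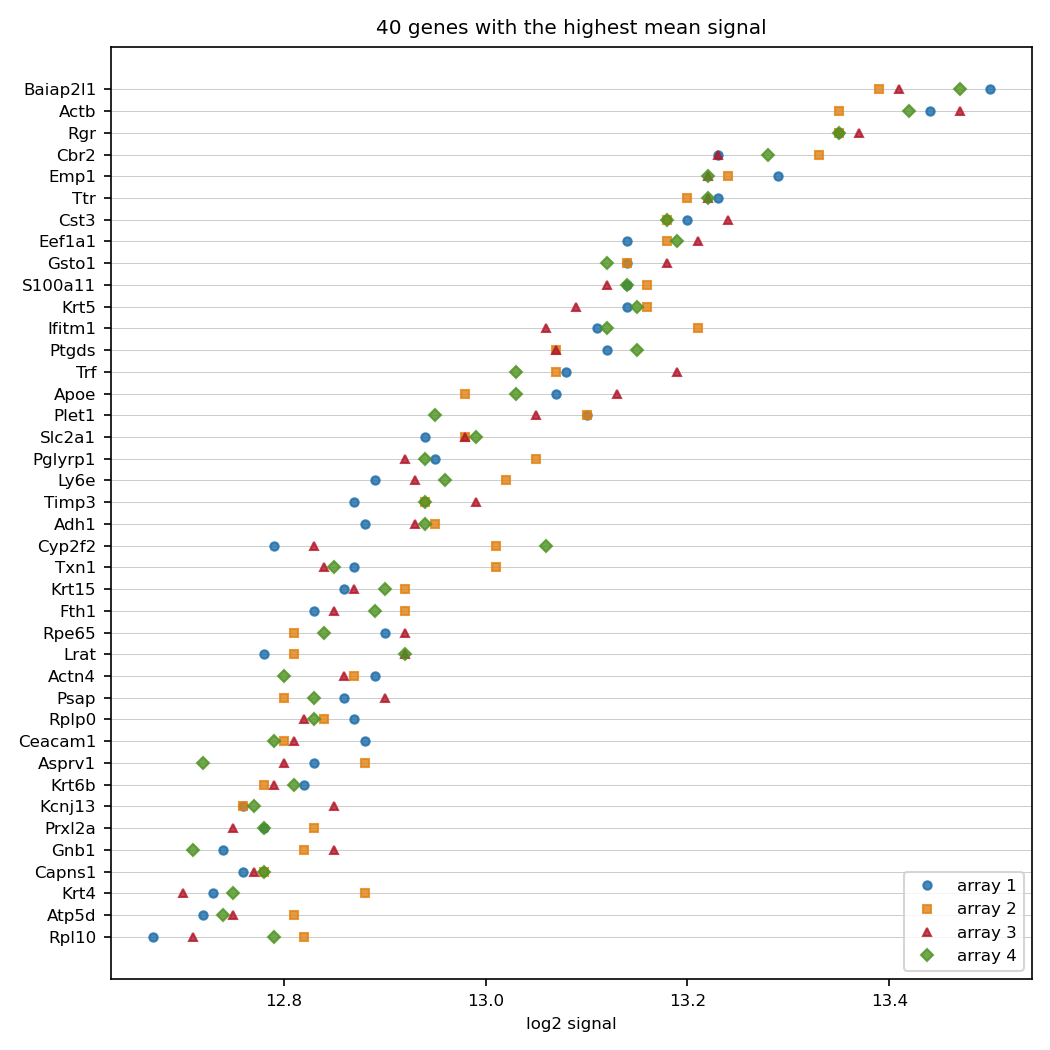
The 40 genes with the highest mean log2 signal are ordered from the top, and each point is the log2 signal on 1 of the 4 wild-type arrays. The axis covers less than 1 unit, and the means run from 13.44 for Baiap2l1 to 12.75 for Rpl10.

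Genes of the visual cycle formed the brightest RPE group. Of 12 listed, 11 had a probe set of their own, and their median gene mean was 12.42, higher than 99.6% of all genes. A mean of at least 10 was reached by 9 of the 11 (10.2% over all genes). Stra6, the receptor that takes up retinol from its blood carrier, read 12.60, 12.61, 12.73 and 12.61. The retinol dehydrogenases of the RPE, Rdh5 and Rdh10, read 12.37, 12.36, 12.55 and 12.38, and 12.64, 12.62, 12.72 and 12.51. Rrh (peropsin), an opsin-like protein of the RPE microvilli, read 11.79, 11.61, 11.89 and 11.63, and Dhrs3, a retinal reductase, had a mean of 11.15. The dimmest were Rdh11 at 9.38 and Rdh13 at 8.04, dehydrogenases of wider tissue distribution. Array 3 gave the highest reading of 9 of the 11, whereas 32.3% of all genes were highest there; after the arrays were shifted to the same median, it was 7 of the 11.

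Pigment genes were bright but less so than those of the visual cycle. All 14 members of the melanin list exceeded the receptor level on every array (71.3% over all genes). A mean of at least 10 was reached by 9 (10.2% over all genes). Dct, the tautomerase of the melanin pathway, was first at 12.59, 12.50, 12.51 and 12.57. Tyrp1, its relative in the melanosome membrane, read 11.85, 11.66, 11.83 and 11.78, and Tyr, the tyrosinase that starts the pathway, read 10.09, 9.98, 10.21 and 10.08. The 3 enzymes thus held the same order on every array, although the values come from different probe sets. Gpnmb, a melanosome glycoprotein, and Rab27a, which moves melanosomes, had means of 11.83 and 11.25. Oca2 and Slc24a5, ion transporters of the melanosome, read 10.66 and 11.01, and Slc45a2, a further transporter, read 8.19. Pmel, the fibril protein of the melanosome, read 10.34, 9.90, 10.15 and 9.95 and was highest on array 1. Markers of neural crest melanocytes, which make the same pigment in the choroid, were dimmer at a median of 7.02 over 5 genes. Of these, Kit read 9.98 and Sox10 9.17, while Mc1r read 5.76 and passed the receptor level on 3 of 4 arrays.

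The transcription factors of the RPE spanned a wide part of the scale. Otx2, a homeodomain factor of RPE and photoreceptors, read 12.18, 12.15, 12.25 and 12.10. Pax6 and Sox9, factors of eye and RPE development, were close behind, with a mean of 11.15 for Pax6 and readings from 10.90 to 11.13 for Sox9. Otx1 had a mean of 10.77, Lhx2 9.96, and Mitf, the master regulator of pigment cells, 9.47, 9.45, 9.59 and 9.43. Tfec, a close relative of Mitf, read 4.47, 4.42, 4.82 and 4.97 and was above the receptor level on 0 of 4 arrays. For Mitf the choice of probe set decided the level, since its other probe set had a mean of 2.96 against 9.48 for the one used.

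Promoter sequences were looked at for letters that these factors are known to bind. CATGTG, the core of the M-box read by Mitf, was searched on both strands (as CATGTG or CACATG) in the 250 bases before each start site in RefSeq's table for GRCm38.p6. So was TAATCC (or GGATTA), the core read by Otx2; neither motif overlaps the other. CATGTG was in 6 of the 11 promoters of the melanin genes that matched the table (54.5%), against 12.3% of all 32851 promoters of that length. Those 11 promoters belonged to 9 of the 14 melanin genes, so a gene can count more than once. In the other RPE lists the share ran from 7.14% (transcription factors and transport) to 13.3% (visual cycle). With CACGTG counted too, 8 of the 11 (72.7%) had either form, against 17.6% of all. For the 100 brightest genes of the pellet the share with either form was 18.5%, close to the 17.6% of all promoters. TAATCC was in 2 of 15 visual-cycle promoters (13.3%) and in 6.25% of all. It was also in 2 of 8 surface epithelium promoters, in 14.3% of the promoters of the transcription factor list and of the transport list, and in 0 of 11 and 0 of 13 of the phagocytosis and secreted lists, so it did not set RPE genes apart. The promoters of Rpe65 and of the 3 melanin enzymes are printed as examples that carry these letters; those of Rgr (TAATCC at -167) and Rlbp1 (CATGTG at -124) have a match too and are not printed. They run 5′ to 3′ on the gene's strand up to the last base before the start site, with motif matches in capitals.
Rpe65, chr3:159598931-159599180, plus strand: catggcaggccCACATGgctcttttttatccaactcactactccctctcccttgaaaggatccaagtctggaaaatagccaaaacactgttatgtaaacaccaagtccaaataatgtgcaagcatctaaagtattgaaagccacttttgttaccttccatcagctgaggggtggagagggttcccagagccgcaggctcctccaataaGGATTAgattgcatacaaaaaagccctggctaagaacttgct
Tyr, chr7:87493513-87493762, minus strand: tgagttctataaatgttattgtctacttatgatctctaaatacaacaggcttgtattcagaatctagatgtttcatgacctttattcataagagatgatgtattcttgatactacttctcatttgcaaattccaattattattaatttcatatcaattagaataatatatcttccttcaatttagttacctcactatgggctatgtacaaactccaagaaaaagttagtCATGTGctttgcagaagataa
Tyrp1, chr4:80833963-80834212, plus strand: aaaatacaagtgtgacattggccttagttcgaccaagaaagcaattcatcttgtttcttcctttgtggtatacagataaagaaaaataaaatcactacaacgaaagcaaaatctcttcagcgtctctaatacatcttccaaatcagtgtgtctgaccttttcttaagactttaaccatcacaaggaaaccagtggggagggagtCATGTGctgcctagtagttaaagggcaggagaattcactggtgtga
Dct, chr14:118052247-118052496, minus strand: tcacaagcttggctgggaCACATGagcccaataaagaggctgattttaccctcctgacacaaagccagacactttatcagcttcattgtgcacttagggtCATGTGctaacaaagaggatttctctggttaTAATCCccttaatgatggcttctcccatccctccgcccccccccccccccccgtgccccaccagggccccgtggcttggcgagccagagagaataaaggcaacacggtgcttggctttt
The match nearest to its start site was in Tyr, at base -21, followed by the TAATCC match of Rpe65 at -42 and the CATGTG match of Tyrp1 at -46. Dct carried 3 matches, CATGTG at -232 and -150 and TAATCC at -119, and Rpe65 had a further CATGTG match at -239. These are matches of letters and say nothing of binding.

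Some microRNA precursors have probe sets of their own, and the brightest of 19 looked at was the one known from RPE. A gene array reads the precursor transcript with long RNA and not the mature microRNA, so these signals are not mature levels. Mir204, an RPE microRNA encoded within Trpm3, read 9.53, 9.02, 8.92 and 8.58, highest on array 1 and lowest on array 4. Its host gene Trpm3, a cation channel, read 11.85, 11.67, 11.82 and 11.70, so host and precursor did not order the arrays alike. Mir211, encoded within the melanocyte-type channel gene Trpm1, read 7.72, 7.08, 7.05 and 7.23, beside 8.76, 8.68, 8.64 and 8.71 for Trpm1. The precursors Mir200b and Mir200a, of the epithelial miR-200 family, had means of 8.56 and 7.65, and Mir205, known from stratified epithelium, read 6.75, 7.24, 6.65 and 6.78. Mir183 and Mir96, a cluster of photoreceptors and other sensory cells, read 2.97 and 4.95 and were above the receptor level on 0 of 4 arrays. The list was added after the levels had been seen, and 12 of its 19 members were above that level on no array (24.1% over all genes). The mature sequences of the brightest precursors are given to show which share a seed, bases 2 to 8, in capitals; sequences and positions are RefSeq's for GRCm38.p6.
mmu-miR-204-5p, chr19:22750610-22750631, plus strand: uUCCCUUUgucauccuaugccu
mmu-miR-211-5p, chr7:64205831-64205852, plus strand: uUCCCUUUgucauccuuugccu
mmu-miR-200b-3p, chr4:156055685-156055706, minus strand: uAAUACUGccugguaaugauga
mmu-miR-200a-3p, chr4:156054911-156054932, minus strand: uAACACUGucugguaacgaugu
mmu-miR-205-5p, chr1:193507503-193507524, minus strand: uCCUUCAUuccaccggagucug
The precursors Mir204 and Mir211 thus give mature strands with the same seed, UCCCUUU, whereas the seeds of Mir200b (AAUACUG) and Mir200a (AACACUG) differ from each other.

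Transport genes were among the brightest of the pellet, with exceptions that are known as RPE genes. Of 16 measured, 12 had a mean of at least 10 (10.2% over all genes), with a median of 11.47. After Slc2a1 and Kcnj13 came Atp1b1, a subunit of the sodium pump that the RPE places apically, at 12.37, 12.31, 12.37 and 12.34. Slc6a20a, an amino acid transporter, had a mean of 12.24, Slc16a1 (a lactate carrier) 11.95, Car14 (a membrane carbonic anhydrase) 11.90 and Slc6a6 (the taurine transporter) 11.84. Slc16a8, the basolateral lactate carrier found in RPE, read 10.02, 9.93, 10.38 and 9.94, highest on array 3. At the other end, Best1, the bestrophin anion channel that serves as an RPE marker in many studies, read only 6.01, 6.02, 5.76 and 5.75. That was above the receptor level of each array but in the lower part of all genes. Car4, a carbonic anhydrase of the choriocapillaris and RPE, read 5.39, 5.11, 5.34 and 5.62 and passed that level on 1 of 4 arrays.

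Of 10 measured genes for taking up outer segments, 7 had a mean of at least 10 (10.2% over all genes); the others were Myo7a, Pros1 and Cd36. Mertk, the receptor kinase that triggers engulfment, read from 9.99 to 10.27 over the arrays, highest on array 3, and its ligand Gas6 read 10.53, 10.66, 10.55 and 10.77. The other ligand, Pros1 (protein S), read 6.04, 6.46, 6.20 and 6.72. The binding integrin chains Itgav and Itgb5 had means of 11.96 and 10.63, and their bridging ligand Mfge8 had 11.09. Receptor, integrin and bridging ligands therefore all had signal, with Gas6 brighter than Pros1 on every array. Ezr (ezrin), which shapes the apical microvilli, read 11.45, and Myo7a, a motor of melanosomes and phagosomes, read 8.95. Cd36, a scavenger receptor, read 4.52, 4.49, 4.84 and 4.81 and was above the receptor level on 0 of 4 arrays. Lysosomal genes, which degrade the engulfed tips, had a median of 11.29 over 14 genes. Of these, 11 had a mean of at least 10 (10.2% over all genes). Ctsd, the cathepsin known to digest rod outer segment protein, read 12.59, 12.64, 12.73 and 12.66, while Ctss, a cathepsin of antigen-presenting cells, read 7.70.

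Secreted and matrix genes had a median of 10.90 over 14 genes. Vegfa, the angiogenic factor that the RPE sends to the choroid, read 10.58, 10.44, 10.74 and 10.52. Bmp4, a growth factor of the transforming growth factor family, had a mean of 12.02, Col8a1, a collagen of Bruch's membrane, 11.70, and Efemp1 (fibulin-3), an extracellular glycoprotein, 11.60. Serpinf1, which encodes pigment epithelium-derived factor, read lower at 7.13, 7.40, 7.43 and 7.61. Mfrp and C1qtnf5, a pair of RPE genes transcribed together, share a probe set annotated to both, and its mean was 11.33, which cannot be divided between them. Over all RPE lists and the 5 markers, 75 genes were measured, with a median of 10.96. Of these, 52 had a mean of at least 10 (10.2% over all genes), 72 were above the receptor level on all 4 arrays (71.3%) and 0 ranged by 1 unit or more, which does not set them apart from all genes (0.446%). The widest of them spanned 0.68, that of Pros1.

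The second set of bright genes belonged to surface and mucosal epithelium. Over 39 measured genes of the surface epithelium list and of a goblet and mucosal list, the latter added after the levels had been seen, the median was 11.86. A mean of at least 10 was reached by 30 of them (10.2% over all genes). A mean of at least 12 was reached by 18 (0.878% over all genes), the same number as among the 75 RPE genes. The added list was chosen with its levels in view, so these joint counts are partly set by that choice. On the surface epithelium list alone, 14 of 18 had a mean of at least 10. All 39 were above the receptor level on every array (71.3% over all genes). Krt14, the partner keratin of Krt5, read 12.45, 12.53, 12.42 and 12.51, and Krt13, the partner of Krt4, read 12.55, 12.66, 12.53 and 12.51. Trp63, the p63 factor of stratified epithelial stem cells, read 10.46, 10.61, 10.52 and 10.41. Aldh3a1, an aldehyde dehydrogenase abundant in the mouse cornea, read 12.31, 12.54, 12.31 and 12.51. Krt12, the keratin that defines corneal epithelium, was dimmer and less even at 8.63, 7.53, 7.57 and 8.23, high on arrays 1 and 4. The keratins of dry skin, Krt1 and Krt10, read 7.21 and 6.92.

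Genes of mucus-making cells were also bright. Muc4, a membrane mucin of wet epithelia, read 12.76, 12.66, 12.67 and 12.59, and Muc5ac, the gel-forming mucin of conjunctival goblet cells, read 12.14, 12.49, 11.66 and 12.48. Muc5b, a second gel-forming mucin, read 9.92, 10.57, 9.48 and 10.75, a range of 1.27. Both gel mucins were higher on arrays 2 and 4 than on arrays 1 and 3, and so was Tff1, a trefoil peptide secreted with mucus, at 8.91, 9.51, 8.44 and 9.38. The means of the list, which includes these genes, had the same higher pair, at 10.98, 11.18, 10.96 and 11.12. Its members were mixed. Of its 21 genes, 11 were highest on array 2 (27.6% over all genes) and 4 on array 4 (12.5%). On array 1, 8 were lowest (32.8% over all genes), and on array 3, 7 (12.8%). Against the pattern, 5 were lowest on array 4 (19.0%), Muc4 and Plet1 among them. Krt19 and Krt7, keratins of mucosal and glandular cells, were even by comparison at means of 12.35 and 11.86. Simple-epithelium Krt8 and Krt18, shared by RPE and mucosa, had means of 12.07 and 11.39, and the junction gene Cldn1 read 12.26, 12.32, 12.41 and 12.35. Cldn19, a tight-junction claudin of the RPE, read 7.75, 7.16, 7.19 and 7.71. In a bulk pellet, fewer cells of a type and less RNA per cell cannot be told apart, so these brightnesses do not give cell shares.

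**Figure D3:**
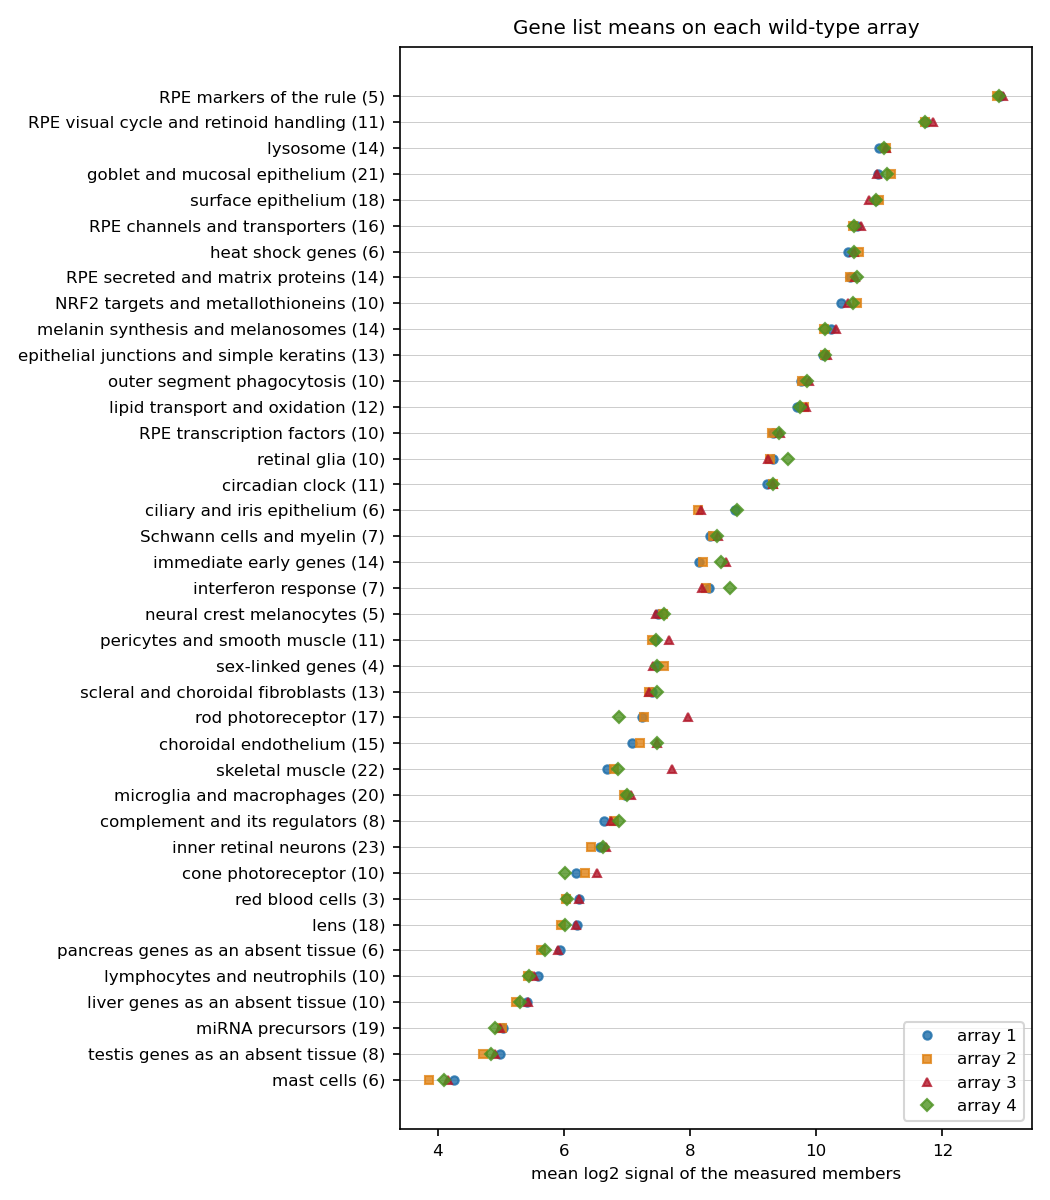
Each row is a gene list and each point the mean log2 signal of its measured genes on 1 of the 4 wild-type arrays. Most lists have 4 points that nearly coincide, whereas array 3 stands to the right for skeletal muscle (7.72) and rods (7.97), and arrays 1 and 4 for ciliary and iris epithelium (8.72 and 8.75).

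Genes of rods had lower signal, and it differed between arrays. The 17 rod genes with probe sets of their own had list means of 7.23, 7.27, 7.97 and 6.87 on arrays 1 to 4. Gnat1, the rod transducin alpha subunit, was the brightest rod-restricted gene at 10.47, 10.59, 11.79 and 9.99. Abca4, an outer segment flippase that is also made in RPE, read 11.07, 10.65, 11.09 and 10.86. Unlike most of the rod genes, it was lowest on array 2 and not on array 4. Cngb1 had the same order of arrays, at 7.37, 7.03, 7.39 and 7.12, and Rom1 and Guca1a were lowest on array 1. Nrl, the factor that sets rod identity, read 5.31, 5.16, 5.57 and 5.02, above the receptor level on 0 of 4 arrays. Cone genes had means of 6.19, 6.34, 6.52 and 6.02, with 6 of 10 above the receptor level throughout (71.3% over all genes). Opn1mw, the green cone opsin, read 5.81, 6.22, 6.70 and 5.42.

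Genes of inner retinal neurons had a median of 6.11 over 23 genes, and 16 exceeded the receptor level on all arrays (71.3% over all genes). The brightest was Slc6a9, a glycine transporter, at 12.36, 12.36, 12.46 and 12.39. Next came Rbpms, an RNA-binding protein used as a ganglion cell marker, at 9.67, Tfap2a at 9.38, the channel gene Trpm1 at 8.70 and Tfap2b at 8.51; Tfap2a and Tfap2b are amacrine-cell factors that surface epithelium also uses. Gad2, Calb1 and Pou4f1, which mark amacrine, horizontal and ganglion cells, read 4.58, 4.09 and 5.04 and were above it on 0 arrays. Among glial genes, Glul and Clu were bright (12.34 and 12.27), but both are made outside glia as well. Aqp4, the Müller-cell water channel, read 7.57, 8.10, 7.28 and 7.91, and Kcnj10, the Müller-cell potassium channel, read 5.95. Gfap, the intermediate filament of astrocytes, read 6.02, 6.53, 6.03 and 7.13.

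Tissues behind the RPE gave moderate signals. The 15 endothelial genes had means of 7.09, 7.20, 7.48 and 7.48, and all were above the receptor level throughout (71.3% over all genes). Array 1 was the lowest for 11 of the 15 (32.8% over all genes). Emcn, a sialomucin of the choriocapillaris, read 7.21, 7.64, 8.00 and 8.29, and Flt1, a receptor for vascular endothelial growth factor, read 8.33, 8.36, 8.51 and 8.51. Pericyte and smooth muscle genes had a median of 6.92, but Acta2, smooth muscle actin, read 10.60, 10.48, 10.75 and 10.43. Of the fibroblast genes, the collagens Col1a1 and Col3a1 read 7.78 and 7.02, whereas the proteoglycans Dcn and Bgn read 10.13 and 10.02. Lum (lumican), a keratan sulphate proteoglycan of sclera and cornea, read 4.70, above the receptor level on 0 of 4 arrays.

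Immune and blood genes varied by cell type. The 20 microglia and macrophage genes had means between 6.95 and 7.06, with 16 above the receptor level on every array (71.3% over all genes). Itgam and Csf1r, an integrin chain and the receptor for colony-stimulating factor 1, read 10.47 and 10.09, while Mrc1, Cd163 and Aif1, markers of tissue macrophages and microglia, read 4.78, 4.88 and 4.99, above it on 0 arrays. Mast cell genes were at background on all 4 arrays, with 6 of 6 above the receptor level on no array (24.1% over all genes). All 6 were lowest on array 2 (31.4% over all genes), the array with the lowest receptor level, and the dim testis and lens lists had 6 of 8 and 11 of 18 genes lowest there. Hemoglobin probe sets are shared between near-identical copies and cannot be assigned to 1 gene. The pair for the alpha globins Hba-a1 and Hba-a2 had means of 11.14 and 11.02. Alas2, the red-cell enzyme of heme synthesis, read 7.12 at most. Lens crystallins were low, with Cryaa at 6.15, 5.91, 5.96 and 5.69, except Cryab, a small heat shock protein made in many tissues, at 10.82. As a comparison from absent tissues, 24 liver, testis and pancreas genes had a median of 5.30. Of these, 7 still exceeded the receptor level on all arrays (71.3% over all genes).

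The Y-linked genes Eif2s3y, Uty and Kdm5d read 8.87, 8.44 and 8.28, while Xist, the RNA that silences an X chromosome in females, read 4.48, 4.34, 4.34 and 4.33. By these genes all 4 arrays had male signal, and Xist was at background on each. The 58 ribosomal protein genes had a median of 11.01. The 81 respiratory chain genes had a median of 10.18, and 45 reached 10 (10.2% over all genes). Metallothioneins Mt1 and Mt2, which bind zinc and copper, read 12.17 and 12.70. Among clock genes, Nr1d1, the nuclear receptor Rev-erb alpha, read 11.66, 11.76, 11.58 and 11.73, Dbp had a mean of 10.81, and Arntl, the Bmal1 activator, read 6.84, 6.84, 6.98 and 6.70.

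Most genes differed little between the 4 arrays. The SD over arrays had a median of 0.11 over all genes, and the range had a median of 0.25. Between any pair of arrays the correlation across genes was 0.994 to 0.997; genes are not independent replicates, and these values describe likeness of whole profiles. The median SD was 0.129 for genes with a mean below 5 and largest, at 0.142, for genes from 5 to 7. Above that it shrank with brightness, to 0.066 for genes at 11 or more. Ppp2r1a, the scaffold subunit of protein phosphatase 2A, varied least at high signal, with 12.15, 12.16, 12.16 and 12.15. Nek9, a kinase of mitosis, and Bmpr1a, a receptor for bone morphogenetic proteins, stayed as close, within 0.01 over the arrays. Rps6, a protein of the small ribosomal subunit, read 12.73, 12.73, 12.71 and 12.72. Arrays were not equal in rank, since array 3 held the highest value of 32.3% of genes and array 4 of 12.5%.

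**Figure D4:**
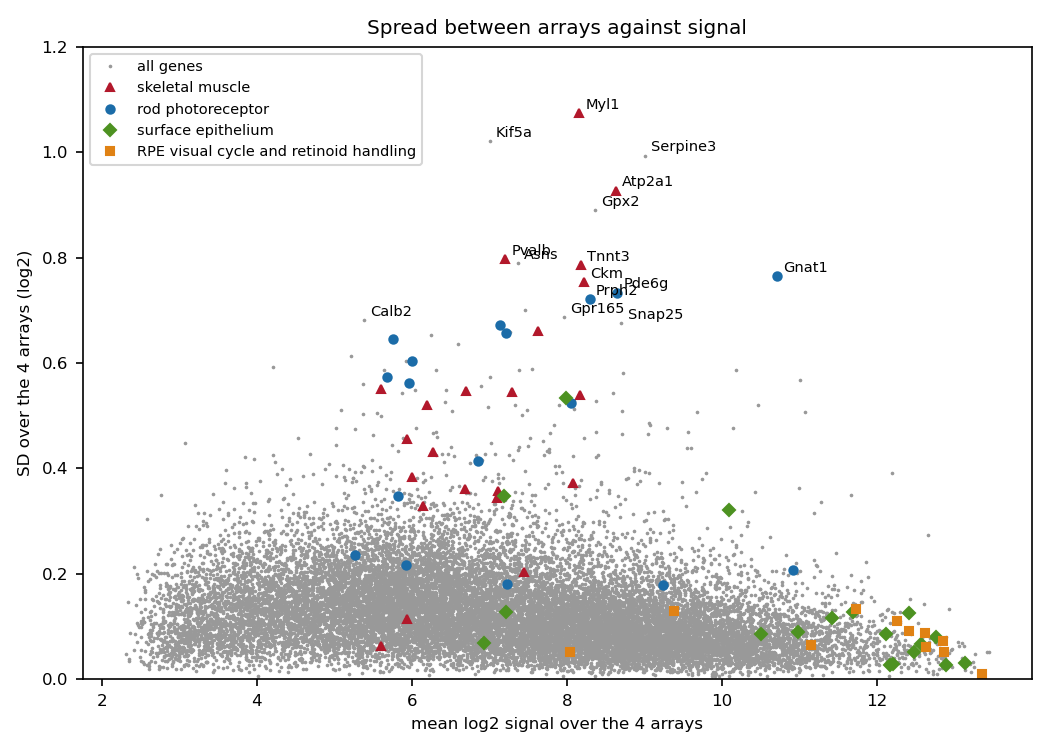
The SD over the 4 wild-type arrays is plotted against the mean log2 signal for each gene, and triangles, circles, diamonds and squares mark muscle, rod, surface epithelium and visual cycle genes. The cloud narrows to the right, and the labelled genes, led by Myl1 with an SD of 1.08, lie far above it.

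A range of at least 1 unit was reached by 89 of 19938 genes (0.446%), and a range of at least 2 units by 4 (0.0201%): Myl1, Serpine3, Kif5a and Atp2a1. Of the 89, 80 carry a settled gene symbol. Of the 80, 32 were high on array 3 alone, 11 on arrays 1 and 4, 8 on array 4 alone, 7 on all but array 1, and 6 on arrays 3 and 4, when each gene's arrays were divided at its largest gap. Leaving out array 3 brought the 89 down to 37.

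The set high on array 3 alone held both skeletal muscle and photoreceptor genes. Myl1, a myosin light chain of fast fibres, had the widest range of any gene at 7.07, 8.20, 9.61 and 7.74, a 5.82-fold difference between arrays 3 and 1. Atp2a1, the calcium pump of fast muscle, read 7.78, 8.27, 9.94 and 8.52, and Tnnt3, fast troponin T, read 7.43, 7.91, 9.28 and 8.09. Array 3 was high in all of them and array 1 low. Ckm, muscle creatine kinase, read 7.65, 7.88, 9.33 and 8.04, and Pvalb, the calcium buffer parvalbumin, read 6.41 on array 1, 8.31 on array 3 and at most 7.11 on the others. Of the 22 muscle genes, 20 were highest on array 3 (32.3% over all genes) and 12 ranged by 1 unit or more (0.446%). The list means were 6.68, 6.79, 7.72 and 6.86. The exceptions were Myh8 and Myh13, myosins of developing and of extraocular muscle, at 6.05, 5.79, 5.99 and 5.90, and at 5.68, 5.56, 5.54 and 5.62.

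Rod genes were also highest on array 3, with another order of the remaining arrays. All 17 measured rod genes were highest on array 3, and 13 of the 17 were lowest on array 4 (19.0% over all genes). Pde6g, a subunit of the rod phosphodiesterase, read 8.32, 8.60, 9.69 and 8.00, Prph2 (peripherin 2), a protein of the disc rim, read 8.01, 8.22, 9.31 and 7.63, and Rcvrn (recoverin) read 7.02, 6.96, 8.08 and 6.49. Sag, rod arrestin, read 8.08, 8.01, 8.70 and 7.42. Against Gnat1 on array 4, array 3 was 3.48-fold brighter. The RPE marker mean was 12.97 on array 3 and 12.87 to 12.91 on the others; these markers lie at the top of the scale, where the spread of all genes is smallest, so they say little on whether RPE content was equal. After a second quantile normalization of the 4 arrays, 15 of 17 rod genes and 20 of 22 muscle genes were still highest on array 3. Of the 23 inner retinal neuron genes, 7 were highest on array 3, near the share of all genes (32.3%). Among them, Nefl, a neurofilament, read 5.81, 5.60, 7.01 and 6.55.

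Genes of the ciliary body and iris showed a second pattern, with arrays 1 and 4 above arrays 2 and 3. Optc (opticin), a proteoglycan made by the ciliary epithelium, read 10.04, 9.17, 9.32 and 10.18. Zic1 and Zic2, zinc finger factors of the peripheral optic cup, read 8.46, 7.63, 7.65 and 8.63, and 8.97, 8.21, 8.06 and 9.15. In each, the lower reading of the high pair lay above the higher reading of the low pair. The pairs were chosen from these same values. How many of all genes divide the arrays in this way was not counted, so the separation is a description only. The list means over 6 genes were 8.72, 8.12, 8.18 and 8.75, while Gja1 (connexin 43) alone of the 6 stayed within 0.11. Krt12, the corneal keratin, and Cldn19 were high on the same pair. Whether these genes share a source was not tested.

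Immediate early genes, which switch on quickly after stimulation or tissue handling, had list means of 8.14, 8.21, 8.57 and 8.49. Dusp1, a phosphatase of stress-activated kinases, read 10.35, 10.73, 11.32 and 11.61, Fos 6.84, 7.34, 8.03 and 7.71, and Egr1 8.58, 8.76, 9.60 and 9.26. Arrays 3 and 4 were the higher pair in these 3. Jun, the partner of Fos, had the same higher pair at 10.35, 10.51, 10.59 and 10.66. Its range of 0.31 was narrower than theirs but above the median of 0.25 over all genes. Of the 14 genes, 8 were highest on array 3 (32.3% over all genes) and 4 on array 4 (12.5%), and 5 had a range of at least 1 unit (0.446%). Heat shock genes did not share this order, with Hspb1 at 10.87, 11.40, 11.19 and 11.27 and Hspa1a between 10.85 on array 1 and 11.12 on array 2. Of the 6 measured, 4 were highest on array 2 (27.6% over all genes).

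Other wide-ranging genes divided the arrays in further ways. Kif5a, a neuronal kinesin, read 6.17, 7.26, 6.24 and 8.34. Ifit1, an interferon-induced gene, read 8.26, 7.83, 7.94 and 8.85, and 5 of 7 measured interferon genes, a list added after the levels had been seen, were highest on array 4 (12.5% over all genes). Gpx2, the glutathione peroxidase of mucosal epithelium, read 7.60, 9.42, 7.66 and 8.79, with arrays 2 and 4 high as for Muc5b. Serpine3, a serine protease inhibitor family member, had a range of 2.41, second to Myl1, at 7.75, 10.16, 8.89 and 9.21. No array was high in all of these sets: array 3 had the highest list means for muscle and rods, and arrays 1 and 4 for ciliary and iris genes.

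**Figure D5:**
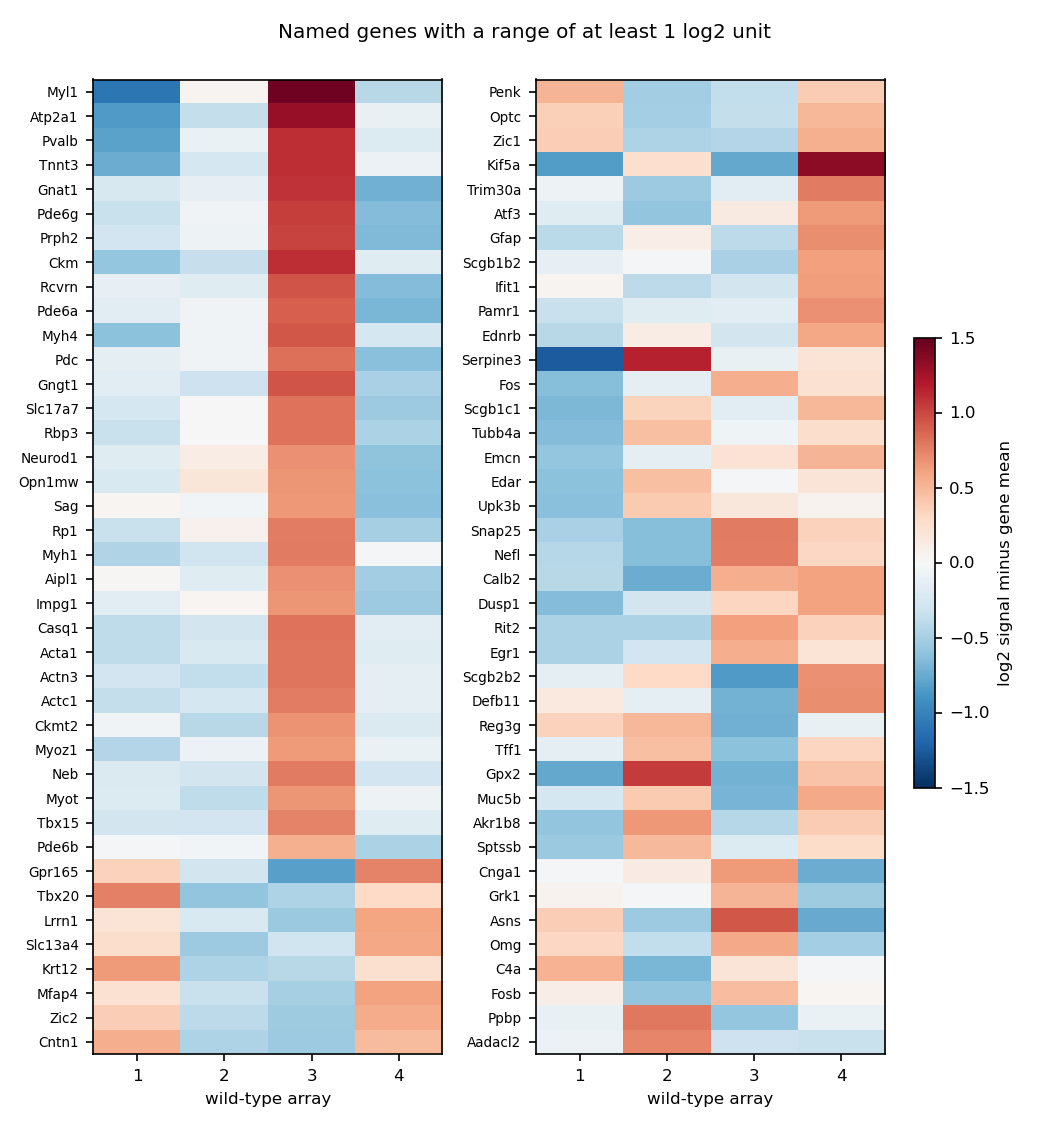
The 80 named genes with a range of at least 1 log2 unit are drawn as rows and the 4 wild-type arrays as columns, coloured by log2 signal minus the gene's mean. The left panel opens with 32 genes that are red on array 3 alone, among them muscle and rod genes; the blocks that follow are red on arrays 1 and 4, on array 4, and on other sets.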

How the data were processed

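RNA of 4 wild-type RPE samples was read on Affymetrix gene arrays, and the 3 mutant arrays of the series entered only the choice of probe set in 1 alternative. The authors deposited log2 values, 1 per probe set and array, made with RMA in Affymetrix Expression Console, per the submitters' processing notes; which versions is not given in the sources used here. This method equalises the probe distributions of all arrays and compresses differences among dim probe sets. Gene names are those of the platform's annotation table, some of which may be outdated. Of 35556 probe sets, 21789 had 1 symbol, 1621 several and 12146 none. An Entrez identifier of 21698 matched RefSeq's gene table for GRCm38.p6, and 0 symbols changed. For the 999 genes with several 1-symbol probe sets, the one with the highest mean over the 4 arrays was used; in 447 of them the probe sets differed by 1 unit or more.

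Means, SDs and ranges over the arrays were computed with Python 3.11.15, pandas 2.3.3 and numpy 2.4.6, and drawn with matplotlib 3.10.9; the spread calculation was tested on simulated data. No test was run, since there is 1 group, and the number of arrays limits the precision. The genes named are the 40 brightest, the 30 most and 10 least variable with a settled symbol, the 5 genes whose probe sets disagree most, and members of the gene lists; any further name was picked with its values in view. The members and the 36 lists were chosen with earlier results of these data known, and 3 lists were added after the levels had been seen. Of 443 entries in the 36 lists, 410 were measured, 8 lay only on a shared probe set and 25 had no match. Alternatives were leaving out each array, 2 rescalings, other probe set rules, other thresholds, and, chosen after seeing the data, counting genes above background on at least 1 array.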

Additional observations from a re-analysis of the deposited data

Results flagged for a closer look

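Values of 263 items, 224 genes and 39 list means, were examined for 1 array lying far from the other 3 relative to the whole range of the 4; chance marks about 1 in 20. Marked were 8 genes and 2 lists, a smaller share than the 5.42% of all genes marked in the same way, so the marks show no excess. The mean of the visual cycle list was 11.84 on array 3 against 11.72 to 11.73 on the others. Within it, Rdh5 read 12.55 on array 3 against 12.36 to 12.38, Stra6 read 12.73 against 12.60 to 12.61, and Rgr read 13.37 against 13.35. Kcnj13 read 12.85 on array 3 against 12.76 to 12.77, and Slc6a20a read 12.35 against 12.19 to 12.21. Rbpms read 9.83 on array 2 against 9.60 to 9.63. Array 1 was the odd one for the remaining items: the clock list had a mean of 9.22 there against 9.31 on the others, Mt2 read 12.62 against 12.72 to 12.73, and Xist, below the receptor level throughout, read 4.48 against 4.33 to 4.34. These gaps are small beside the unit that marks a doubling.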

How the results depend on the processing

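Of the counts and levels over all genes, 14213 genes above the receptor level, the median SD of 0.11 and the RPE marker mean of 12.91 kept within the limits set for a change under every alternative run. For the marker mean the limit was the SD between arrays. For the count and the median SD it was a ratio to the main value, wide enough to let the count shift by many genes. The count of genes with a range of at least 1 unit was 37 to 68 when 1 array was left out, lowest without array 3, and 4 genes ranged by 2 units or more. List members with a range of at least 1 unit numbered 41, and 11 to 34 when 1 array was left out, with 11 without array 3 and 27 without array 4. The median over the 39 list means was 8.35; it was 8.25 to 8.38 when 1 array was left out (8.25 without array 4) and 8.18 with the median of each list's members in place of their mean. Bright genes numbered 693 with a minimum of 11. The fewer arrays or the higher thresholds account for smaller counts by construction; otherwise the cause was not tested. Of the 39 lists, 0 moved by more than the SD between arrays in either rescaling, 2 did with all probe sets of a gene averaged, and 27 with the median of members. The highest array of a list changed in 11 lists when the arrays were shifted to the same median, endothelium among them (array 3 to array 4), and in 7 after a second quantile normalization. Counted on at least 1 array, 15127 genes were above the receptor level. No paired analysis was possible because the 4 arrays are 1 group and the results come from no test. Signals near the receptor level bound a gene's expression from above only. Bulk signal, probe affinity and compression by RMA limit comparisons between genes.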

Other observations

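Beyond the RPE and epithelial lists, genes that protect against oxidative stress were bright and slightly lower on array 1. Gsta4, a glutathione transferase for lipid aldehydes, read 12.55, 12.65, 12.58 and 12.65 on arrays 1 to 4, and Nqo1, a quinone reductase, read 9.82, 10.34, 10.12 and 10.29. Over the 10 genes of that list, 6 were lowest on array 1, where 32.8% of all genes were. Hmox1, heme oxygenase 1, was the dimmest of them at 7.59, 8.10, 8.12 and 7.98.

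Genes of lipid handling ran from Apoe to the regulators of fat use. Cpt1a, which admits fatty acids to mitochondria, had a mean of 10.95, and Acadm and Hadha, enzymes of fatty acid oxidation, had 10.72 and 10.79. Ppara, a nuclear receptor of that pathway, read 7.45, and Pdk4, which spares glucose, read 7.09. Mfsd2a, a transporter of docosahexaenoic acid in lysophospholipid form, read 9.55, 9.88, 10.04 and 9.79. Complement genes were dim, with a median of 6.97 over 8 genes; the protective surface protein Cd59a was the brightest at 9.54, and Cfi, the complement factor I protease, read 4.80, above the receptor level on 0 of 4 arrays.

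The 5 genes whose probe sets disagreed most are named because another probe set would have put them at background. Besides Mitf these were Slc16a9 (3.49 and 11.40), Hibadh (3.46 against 10.58), Ube2v1 (4.23 and 11.18) and Ufm1 (3.66 and 10.23).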
